A study of Mus musculus with 84 samples.

Results

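Many mouse gene models carry a provisional symbol, Gm followed by a number, because they have no established name. The features described here are Gm models with 1 annotated exon, on an autosome, that lie wholly inside a multi-exon gene of the opposite strand and inside no multi-exon gene of their own strand. A minimum of 10 read counts summed over the 32 RNA libraries completed the rule. Of 55401 gene IDs in the files, 1004 met it, and they lay in 875 distinct host genes. A total of 2638 models had this position; 1634 fell below the minimum and 932 of those had no count in any library. Because the minimum is a measured value, the features' summed level is a description of how they were chosen and not a result. At the edge, 33 models such as Gm24207 had exactly 10 counts and 37 such as Gm23405 had 9.

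The RNA came from frontal cortex, taken anterior to bregma +1 mm, of 129S6/SvEvTac mice aged 12 weeks. Nuclei were isolated and the NeuN+ fraction, which marks neuronal nuclei, was sorted. One group received vehicle. The other groups were killed 24 h, 48 h or 7 days after an injection of DOI (2,5-dimethoxy-4-iodoamphetamine), a psychedelic agonist of serotonin 5-HT2A receptors. Each group had 4 mice with RNA data and 2 libraries per mouse, which were summed, so that n = 4 mice per group throughout. Libraries were made with SMART-seq2 and Nextera XT.

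In nuclei, much of the RNA of a long gene is precursor RNA that still carries its introns. A small model annotated inside an intron on the opposite strand can be a separate gene, a retrotransposed pseudogene or a small RNA gene. The library kit does not mark the strand of the RNA and the reads were counted without strand. A read that falls on such a model is therefore counted for it whether the RNA came from the model or from the intron of the host, and these sources cannot be told apart in any value below. Natural antisense transcripts are known in neurons: Snhg14, a long noncoding host of small nucleolar RNAs, runs antisense into Ube3a.

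The features were short, with a median length of 558 bases (54 to 7004), and lay in long hosts, with a median genomic span of 105605 bases. The median position was 46.3% of the host's span from its 5′ end. For 895 features no base was shared with an exon of any multi-exon gene, and 99 shared bases with an exon of their own host. RefSeq had no entry for 478 of them and listed 409 as pseudogenes, 10 as transcribed pseudogenes, 42 as snRNA genes, 37 as snoRNA genes, 19 as lncRNA genes and 9 as protein-coding genes. Most hosts were protein-coding (761 of 875). The features were weakly covered: the median was 48 counts over all libraries and the highest 9627, and the median level was 0.384 CPM (read counts scaled to the size of the library, with TMM factors). The median host stood at 49.2 CPM.

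Sequences are shown for features that lie close to a RefSeq gene start, of the host or of their own. For 7 features, a RefSeq window from 250 bases before to 50 bases after the start of the host shares bases with the feature (Gm37174, Gm43474, Gm43592, Gm43808, Gm43863, Gm47794 and Gm6598). The 250 bases before the RefSeq start are shown for Insig2 (chr1:121328025-121328274, minus strand) and Oxsm (chr14:16243332-16243581, minus strand), both from RefSeq on GRCm38.p6 and written on the host's strand, 5′ to 3′. Capitals mark the 183 and 231 bases that lie inside Gm37174 and Gm47794, whose own strand is the reverse complement.
Insig2: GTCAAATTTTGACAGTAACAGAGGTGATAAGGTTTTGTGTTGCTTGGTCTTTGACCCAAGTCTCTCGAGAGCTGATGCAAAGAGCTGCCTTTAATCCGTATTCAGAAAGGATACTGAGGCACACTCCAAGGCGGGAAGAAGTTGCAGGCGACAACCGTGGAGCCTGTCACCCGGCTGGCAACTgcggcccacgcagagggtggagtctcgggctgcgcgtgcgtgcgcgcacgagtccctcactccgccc
Oxsm: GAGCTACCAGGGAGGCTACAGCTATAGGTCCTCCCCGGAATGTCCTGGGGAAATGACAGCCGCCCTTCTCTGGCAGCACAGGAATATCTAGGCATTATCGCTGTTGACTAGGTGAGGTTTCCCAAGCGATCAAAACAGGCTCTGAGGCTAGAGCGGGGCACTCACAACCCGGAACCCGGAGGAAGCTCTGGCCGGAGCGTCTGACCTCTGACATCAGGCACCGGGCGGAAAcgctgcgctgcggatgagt
Both windows are GC-rich, at 56.8% and 59.2%. Khdrbs2 offers the opposite case, with features that lie 46798 bases (Gm9839) and 70921 bases (Gm5415) from the nearest host exon and have a RefSeq start of their own. Their 250 bases before the start are given for Gm9839 (chr1:32521000-32521249, minus strand) and Gm5415 (chr1:32547294-32547543, minus strand) on the same build. Capitals mark matches to TATAAA on either strand, which overlap in Gm9839.
Gm9839: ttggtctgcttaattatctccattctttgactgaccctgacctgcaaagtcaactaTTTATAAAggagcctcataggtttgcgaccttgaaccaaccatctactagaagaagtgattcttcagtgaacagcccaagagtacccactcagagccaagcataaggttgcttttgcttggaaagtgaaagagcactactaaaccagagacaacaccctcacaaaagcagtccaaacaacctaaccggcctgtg
Gm5415: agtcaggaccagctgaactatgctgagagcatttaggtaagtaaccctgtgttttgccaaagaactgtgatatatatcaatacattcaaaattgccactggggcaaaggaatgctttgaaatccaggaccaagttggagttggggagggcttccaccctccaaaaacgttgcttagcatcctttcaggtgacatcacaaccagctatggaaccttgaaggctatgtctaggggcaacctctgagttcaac
These windows are AT-richer, at 44.4% and 45.6% GC. A match to TATAAA on either strand is held by 12.4% of the 32817 distinct RefSeq windows of the same length. The match in Gm9839 and its absence in Gm5415 are descriptions of these letters only.

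Totals ran from 5834248 to 12354785 counts per mouse (2763704 to 7436451 per library). They were 9151680 to 11517452 in vehicle mice, 6441396 to 8090559 at 24 h and 5834248 to 7344355 at 48 h. CT010467.1, a feature listed under its clone name alone, separated the groups far more: it stood at 72.3 to 110 CPM in the 4 vehicle mice, 3258 to 15064 CPM at 24 h and 5107 to 16124 CPM at 48 h. At 7 days it was 87.3 and 63.4 CPM in mice 1 and 3 but 6171 and 4622 CPM in mice 2 and 4. No vehicle mouse had a high level and no mouse at 24 h or 48 h had a low one, so time after DOI and whatever sets the level of this feature cannot be told apart in those groups. Neuronal markers (6 of 6 detected, with Snap25 at 2043 to 4334 CPM) matched the NeuN+ sort. Their summed level, most of it Snap25, was 5985 to 6310 CPM in vehicle mice, 4034 to 5931 at 24 h and 3669 to 5847 at 48 h. Members went different ways: the mean of Rbfox3, the gene of NeuN, was 56.4 CPM in vehicle mice, 98.8 at 24 h and 99.4 at 48 h, and that of Syt1 was 987, 1325 and 1457. The other 4 had lower means at both times: Snap25 at 4101, 2738 and 2669 CPM, Slc17a7 at 142, 81.5 and 82.7, Gad1 at 632, 354 and 415, and Gad2 at 258, 167 and 187. Endothelial markers were near 0 in all mice (0 to 5.03 CPM for the sum of 3). Microglial markers summed to 61.7 to 98.8 CPM in vehicle mice, 37.6 to 76.3 at 24 h and 41.1 to 71.1 at 48 h, and at 7 days to 111 and 96.4 in mice 1 and 3 against 48.4 and 44.2 in mice 2 and 4. Astrocyte markers summed to 91.2 to 113 CPM in vehicle mice, 65 to 145 at 24 h and 60.3 to 135 at 48 h, with 148 and 109 against 67.8 and 51.1 in the same 7-day mice. Oligodendrocyte markers summed to 144 to 336 CPM over the 16 mice. Mitochondrial genes took 0.0171 to 0.0701% of counts in vehicle mice, 0.0621 to 0.101% at 24 h and 0.108 to 0.268% at 48 h, with 0.0413 and 0.021% in 7-day mice 1 and 3 and 0.13 and 0.114% in mice 2 and 4. The part of these differences in the results below was not tested.

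The summed level of the features is given as a description, since the rule used counts of these libraries. It was 1062, 1113, 1412 and 1405 CPM in the 4 vehicle mice. The mice killed at 24 h had 2574, 1992, 1792 and 2394 CPM, and those killed at 48 h had 2249, 2826, 2734 and 1881 CPM. Every mouse at 24 h and 48 h lay above every vehicle mouse. At 7 days the sums were 1019, 2310, 1254 and 2656 CPM: mouse 1 lay below every vehicle mouse, mouse 3 among them, and mice 2 and 4 among the mice of the earlier times. CT010467.1, the mitochondrial share and the microglial and astrocyte markers separated the 7-day mice in the same way. The median feature had 0.2 CPM in the vehicle group, 0.436 CPM in the 24 h group, 0.46 CPM in the 48 h group and 0.371 CPM in the 7-day group. The group mean was above that of vehicle for 705 of 1004 features at 24 h and 715 at 48 h; 129 features had no vehicle count, met the minimum through DOI mice alone and could not lie below vehicle, so these counts are not support. In bulk nuclei, more nuclei of a type and more RNA per nucleus cannot be told apart.

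**Figure D1:**
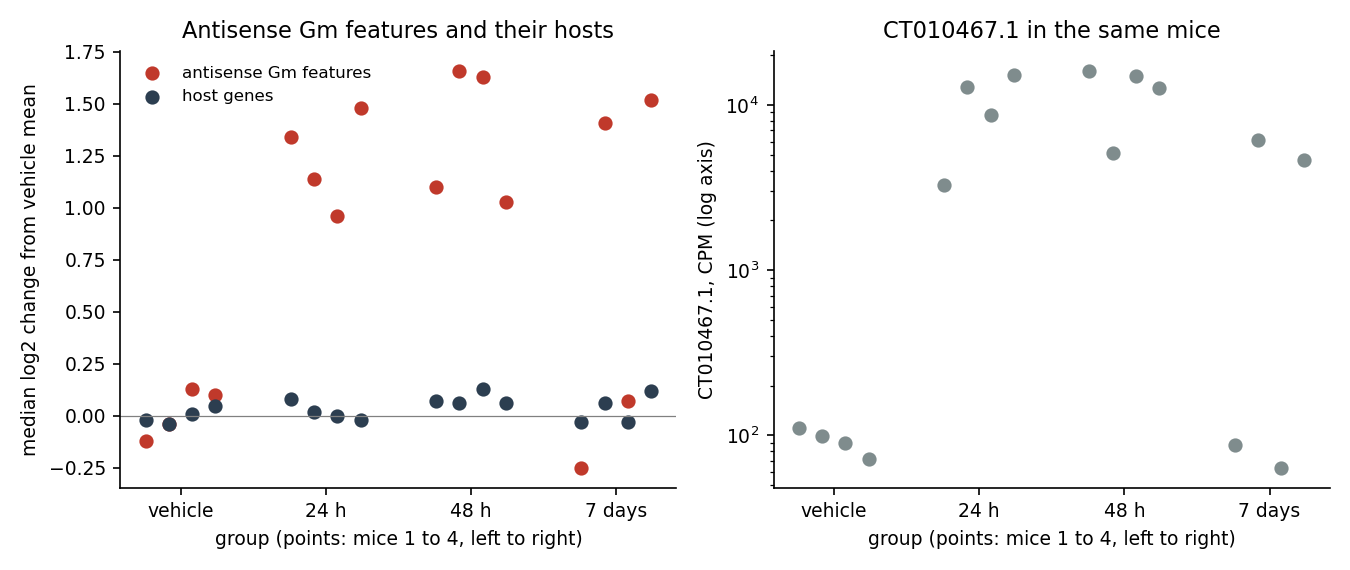
Left, the log2 change against the mean of the vehicle mice, as the median over 304 tested antisense Gm features (red) and over 782 tested hosts (dark) in each mouse. Right, the level of CT010467.1 in the same mice on a log axis. The red points of 24 h and 48 h lie between 0.96 and 1.66, all hosts lie within 0.13 of zero, and the 7-day mice split in both panels.

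Gene by gene, 304 features (30.3%) had enough counts for the edgeR quasi-likelihood test, which was fitted on all 17941 genes that passed the count filter with p-values adjusted over all of them by the Benjamini-Hochberg method. At 24 h, 106 features were higher and 9 lower than in vehicle mice at an adjusted p below 0.05. Of all genes tested, 13.8% were called higher and 10.4% lower. The median log2 fold change was 1.31 over the tested features, the same with those at 0 in vehicle set to their bound, and 0.03 over all genes. At 48 h, 128 were higher and 14 lower (142 in all; 30.1% of all genes were called), against 16.8% and 13.3% of all genes, with a median of 1.51. The comparison over the 4 groups called 73 features, or 24%, where the share of all genes was 18.8%. That count ranged from 20 to 107 when 1 mouse was left out, and was 118 with DESeq2 and 157 with no filter. The comparisons share the vehicle mice. At 24 h, 127 tested features had all 4 DOI mice above all 4 vehicle mice and 21 had them all below, against 18.5% and 17.2% of all genes tested. The 48 h values were 128 and 20, against 19.2% and 19%. Leaving out 1 mouse moved the 24 h count by more than 1.5 times for vehicle mice 1, 2 and 4 and for 24 h mouse 4, to 67, 64, 75 and 71 features; without vehicle mouse 2 the 48 h count fell to 93.

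The filter bears on these counts. Of the tested features, 130 met its level of 1.26 CPM in no vehicle mouse; they were tested because other mice had enough counts and had to differ, so the calls among them are not support. Among them 74 were higher and 0 lower at 24 h. Of the 94 that met the level in all 4 vehicle mice, 15 were higher and 9 lower at 24 h. Their median log2 fold change was 0.00. At 48 h 22 were higher and 13 lower. Calls in all came to 25.5% of the 94 at 24 h and 37.2% at 48 h, against 24.2% and 30.1% of all genes tested. Of all genes, 13.8% were higher and 10.4% lower at 24 h, and 16.8% and 13.3% at 48 h. The split by vehicle level removes features that rose from a low level. By mean level over all 16 mice, of which 12 received DOI, so that a feature that rose has a higher mean than one that fell between the same levels, the quartile with the highest mean (5.2 to 77.2 CPM) had 29 higher and 7 lower of 76 at 24 h and 37 and 8 at 48 h, with medians of 1.07 and 1.23. In the lowest quartile (0.551 to 1.2 CPM) the 24 h counts were 22 and 1, with a median of 1.32. The 700 features that were not tested summed to 148 CPM in vehicle mice, 234 at 24 h and 253 at 48 h.

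The same counts were taken for the hosts and for other single-exon Gm features. Of 782 tested hosts, 119 were higher and 95 lower at 24 h (median 0.04) and 165 and 105 at 48 h (median 0.08). Among single-exon Gm features inside no multi-exon gene, 56 of 549 were higher and 27 lower at 24 h. Among those inside a gene of their own strand, 390 of 1178 were higher and 33 lower at 24 h (33.1% and 2.8%; median 1.22), and 484 and 30 at 48 h. The shares for the antisense features were 34.9% and 2.96% at 24 h. The difference between antisense and own-strand features was not tested.

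**Figure D2:**
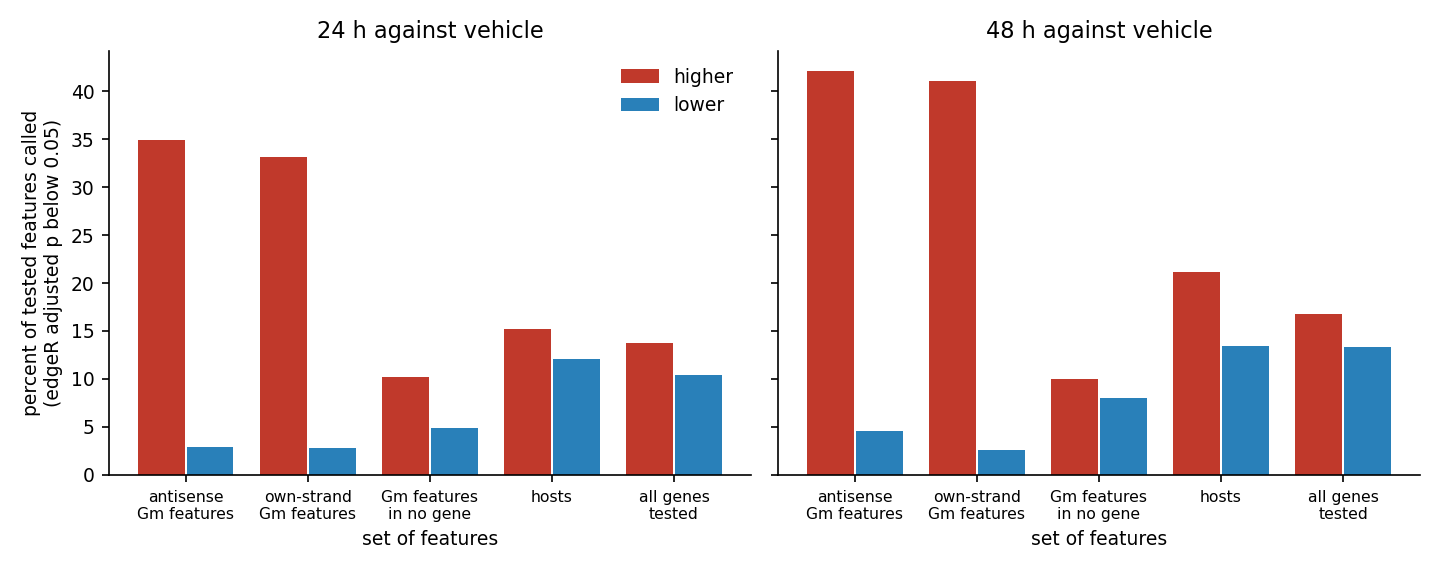
Percent of tested features called higher (red) or lower (blue) than vehicle at 24 h (left) and 48 h (right) in 5 sets. Antisense and own-strand Gm features have similar bars (34.9% and 33.1% higher at 24 h), and hosts resemble all genes tested (15.2% and 13.8% higher).

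At 7 days no feature was called, and 0% of all genes. The smallest adjusted p among the features was 0.096, the same as over all genes. An unadjusted p below 0.05 was found for 116 of 304 features and for 3012 of 17941 genes. DESeq2 called 50 features, all higher, among 796 genes called in all. All 4 mice lay above the vehicle mice for 9 features and below for 2, against 2.81% and 3.04% of all genes. The median log2 fold change was 0.95. The 7-day mice did not vary around that value: the change against the vehicle mean, as the median over the tested features, was -0.25 and 0.07 in mice 1 and 3 and 1.41 and 1.52 in mice 2 and 4. Without mouse 1 the edgeR test called 68 features, all higher, among 1342 genes, and without mouse 3 it called 55, of which 54 were higher, among 1160 genes. Between 48 h and 24 h no feature was called by edgeR (0% of all genes) or by DESeq2. An unadjusted edgeR p below 0.05 was found for 3 of 304 features and for 338 of 17941 genes. Between 7 days and 24 h the edgeR test called 0 (0.00557% of all genes), and DESeq2 called 2 among 393 genes. In the edgeR test, 20 of 304 features and 2555 of 17941 genes had an unadjusted p below 0.05.

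The 6 tested features with the highest mean level lay in Syt1, Snhg14, Kcnip4, Lrrc7, Atp2a2 and Tmem161b; in 3 of them the feature rose at 24 h. Gm47472 (4563 bases, chromosome 10, 108778311 to 108782873, GRCm38) is in intron 5 of Syt1, the calcium sensor of synaptic vesicle release. It had 28.5, 42.1, 64.7 and 57.2 CPM in vehicle mice, 155, 70.5, 57.3 and 91.4 at 24 h and 94.2, 76, 171 and 54.6 at 48 h. The groups overlapped, and neither time passed the test (adjusted p = 0.0956 and 0.0636). Gm44829, in the second to last intron of Snhg14, had 24.7 to 48.3 CPM in vehicle mice, 65 to 110 at 24 h and 74.9 to 150 at 48 h, with no overlap. Its log2 fold changes were 1.23 ± 0.40 (SE; adjusted p = 0.0318) and 1.73 ± 0.40 (adjusted p = 0.00548). Snhg14 itself rose by nearly the same amounts, 1.37 and 1.65 on the log2 scale, and the difference between feature and host was -0.21 ± 0.36 at 24 h. The 24 h call of Gm44829 held in 11 of 16 fits that left out 1 mouse; it was lost without vehicle mouse 1, 2 or 3 or 24 h mouse 1 or 4 (adjusted p up to 0.0969).

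Gm43670 behaved differently from its host. It lies in the first intron of Kcnip4, which encodes a subunit that associates with Kv4 potassium channels, 97858 bases from the nearest exon. Vehicle mice had 22.8, 26, 56.8 and 40.1 CPM, and the mice at 24 h had 98.1, 122, 78.1 and 125 CPM. At 48 h the values were 103, 108, 110 and 74.9 CPM, so that every mouse of both times exceeded every vehicle mouse. The log2 fold changes were 1.54 ± 0.35 (adjusted p = 0.00592) and 1.44 ± 0.35 (adjusted p = 0.0065). Kcnip4 stood at 118 ± 18.7 CPM (SD) in vehicle mice and 92.6 ± 16.5 at 24 h and was not called (log2 -0.35, adjusted p = 0.16). In the paired test the feature rose 1.96 ± 0.45 more than the host on the log2 scale (adjusted p = 0.00946).

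Gm43486 in Lrrc7, a postsynaptic scaffold gene, averaged 35.9 ± 14.5 CPM in vehicle mice and 70.1 ± 36.8 at 24 h and was not called at either time (adjusted p = 0.103 and 0.0892). Gm43361 shares 83 bases with an exon of Atp2a2, the calcium pump of the endoplasmic reticulum; it averaged 34.1 ± 11.5 CPM and 49.9 ± 15 and was not called either (adjusted p = 0.203), while Atp2a2 rose by 0.84 ± 0.26 (adjusted p = 0.0267).

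Gm46432, a pseudogene of 638 bases, lies in intron 6 of Tmem161b (chromosome 13, 84281179 to 84281816). It had 12.1, 11, 11.1 and 13.2 CPM in the vehicle mice and 67.3, 65.2, 64.5 and 67 CPM at 24 h. At 48 h it had 53.7, 109, 60.5 and 61.4 CPM. The 7-day mice had 8.98, 76.6, 9.22 and 80.6 CPM, with mice 1 and 3 just below the vehicle mice and mice 2 and 4 at the levels of the earlier times. The rise was 2.47 ± 0.53 on the log2 scale at 24 h (adjusted p = 0.00495) and 2.58 ± 0.54 at 48 h (adjusted p = 0.00317). Its host moved the other way. Tmem161b had 114, 108, 128 and 157 CPM in vehicle mice and 81.5, 70.2, 83.5 and 63.3 CPM at 24 h, a log2 fold change of -0.76 ± 0.20 (adjusted p = 0.0133). The change of the feature exceeded that of the host by 3.23 ± 0.73 (adjusted p = 0.00918).

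The naming rule took 4 features with no count in any vehicle mouse, for which only a lower bound of the fold can be given and no order. Gm9645, a pseudogene in intron 3 of the ubiquitin ligase gene Rnf13, had 5.64, 8.04, 7.73 and 6.63 CPM at 24 h and 4.93, 9.71, 4 and 11.4 CPM at 48 h. Against the level that 3 counts over the vehicle group would give (0.0753 CPM), it was at least 93.1-fold higher at 24 h (adjusted p = 0.0026) and at least 99.8-fold higher at 48 h (adjusted p = 0.00181). At 7 days it was listed at 0.254 and 0 CPM in mice 1 and 3 and at 4.82 and 5.6 CPM in mice 2 and 4. Rnf13 did not pass the test (178 ± 19.8 CPM in vehicle mice, 160 ± 19.9 at 24 h, adjusted p = 0.526).

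Gm18940 lies in Mdga2, which encodes a neuroligin-binding surface protein, and had 1.83, 5.8, 0.761 and 6.15 CPM at 24 h, at least 48.3-fold above the vehicle limit (adjusted p = 0.00705). Gm47570, in the L-type calcium channel gene Cacna1d, had 4.42, 3.13, 1.65 and 3.55 CPM, at least 42.3-fold higher (adjusted p = 0.00608). Gm24347, in Dennd4a, had 3.66, 2.23, 1.39 and 5.33 CPM, at least 41.9-fold higher (adjusted p = 0.0086). Mdga2 and Cacna1d rose too, by 1.03 ± 0.30 and 0.82 ± 0.26, while Dennd4a was not called (-0.44 ± 0.17, adjusted p = 0.0634). Of all 1004 features, 129 had no count in any vehicle mouse. At 24 h, 48 h and 7 days, 23, 34 and 31 features had none. The 129 met the count minimum through DOI mice alone. A feature with no count in a single DOI group could meet it through vehicle mice and the other DOI groups. The rule therefore shapes these numbers, and their difference is not support. Depth differed too, and was lower at 24 h and 48 h than in vehicle mice.

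Gm25278 and Gm12653 had a few vehicle counts. Gm25278, of 120 bases in intron 5 of Csmd1, had 2 counts over the vehicle mice and 14.9, 2.98, 4.44 and 9 CPM at 24 h. That is a ratio of 154, with a 95% counting interval of 42.1 to 1279 (exact, counting error only; adjusted p of the edgeR test = 0.00308). Its host Csmd1, a complement regulatory gene, rose from 161 ± 30.4 to 333 ± 120 CPM (log2 1.05 ± 0.31, adjusted p = 0.0209). Gm12653, a pseudogene in Elavl2, a neuronal RNA-binding protein gene, had 3 vehicle counts and averaged 2.04 ± 1.35 CPM at 24 h, a ratio of 26 (8.47 to 130). Elavl2 was not called (0.23 ± 0.26, adjusted p = 0.55), and the feature exceeded its host by 4.20 ± 0.77 (adjusted p = 0.00889).

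Gm43292 had the smallest p in the comparison of the 4 groups (adjusted p = 0.00554). It shares 485 of its 2449 bases with an exon of Eif2ak3, which encodes the endoplasmic reticulum stress kinase PERK. It had 1.04, 0.682, 1.87 and 1.27 CPM in vehicle mice, 8.83, 9.38, 6.72 and 8.88 CPM at 24 h and 6.37, 12.9, 5.19 and 7.84 CPM at 48 h. No mouse of either time overlapped the vehicle mice, and the rises were 2.78 ± 0.49 and 2.71 ± 0.49. Eif2ak3 fell by 0.81 on the log2 scale at 24 h (SE 0.22, adjusted p = 0.0146).

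**Figure D3:**
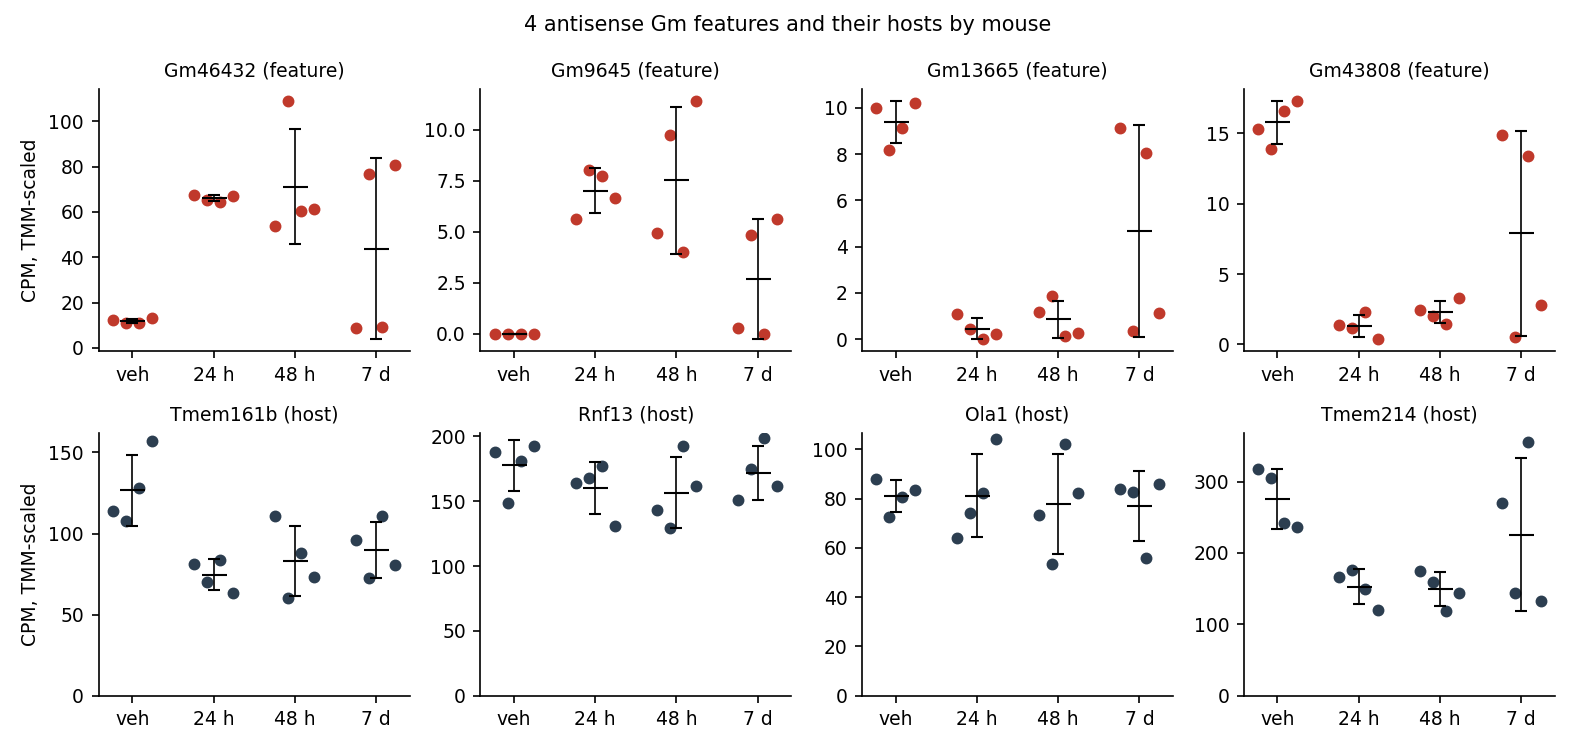
CPM of 4 features (top, red) and of their hosts (bottom, dark) in each mouse, with the group mean and SD in black. Gm46432 and Gm9645 are higher at 24 h and 48 h and Gm13665 and Gm43808 lower, and each of the 4 splits the 7-day mice into mice 1 and 3 near vehicle and mice 2 and 4 near the earlier times.

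A total of 15 features fell at 24 h or 48 h, and 11 of them lay over a host exon or within 1000 bases of one; of 136 that rose, 39 did. Of all 304 tested features, 52 lay over a host exon and 52 within 1000 bases of one. The hosts of those that fell had a median span of 28237 bases and the hosts of those that rose 159104 bases. Gm13665, a pseudogene of 528 bases in intron 10 of Ola1, an Obg-like ATPase gene, had the largest fitted drop at 24 h and lay 16534 bases from an exon; Gm11868, Gm12870 and Gm16103 were the others beyond 1000 bases. It had 10, 8.19, 9.14 and 10.2 CPM in vehicle mice and 1.07, 0.446, 0 and 0.237 CPM at 24 h. At 48 h it had 1.16, 1.84, 0.148 and 0.266 CPM. The log2 fold changes were -4.44 ± 0.95 (adjusted p = 0.00477) and -3.47 ± 0.89 (adjusted p = 0.00886). Ola1 had 81.1 ± 6.57 CPM in vehicle mice and 81.1 ± 16.9 at 24 h (log2 0.00 ± 0.21). At 7 days Gm13665 had 9.15 and 8.06 CPM in mice 1 and 3 and 0.336 and 1.12 CPM in mice 2 and 4.

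Gm43808 shares bases with the window around the Tmem214 start and shares 1480 of its 2065 bases with its exons. The vehicle mice had 15.3, 13.9, 16.6 and 17.3 CPM and the 24 h mice 1.37, 1.19, 2.28 and 0.355 CPM. It fell by 3.59 on the log2 scale (SE 0.71, adjusted p = 0.00337) at 24 h, and its log2 fold change at 48 h was -2.75 ± 0.67 (adjusted p = 0.00702). Tmem214 fell by 0.85 (SE 0.26, adjusted p = 0.0249), and the difference between feature and host was -2.89 ± 0.66 (adjusted p = 0.00926). Reads in shared bases hit both features and were left out of both counts under the default of the counting program.

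Gm37174, whose bases before the Insig2 start are printed above, also fell. It had 13.6, 17.1, 21.3 and 24.6 CPM in vehicle mice, 7.62, 5.95, 10.3 and 5.09 CPM at 24 h and 6.81, 6.03, 3.85 and 6.65 CPM at 48 h. The log2 fold changes were -1.40 ± 0.35 (adjusted p = 0.0101) and -1.71 ± 0.36 (adjusted p = 0.00323). Insig2, a sterol-regulated endoplasmic reticulum protein gene, fell by 0.69 at 24 h (SE 0.16, adjusted p = 0.0068), and the difference between them was -0.73 ± 0.46 (adjusted p = 0.227). Gm47794, on the strand opposite to Oxsm, begins shortly before the Oxsm start and runs away from it. It had 23 ± 2.29 CPM in vehicle mice and 18.5 ± 3.26 at 24 h and was not called (adjusted p = 0.372). Of the 7 features that share bases with a window around the host start, 4 were tested, and Gm43808 and Gm37174 fell and none rose at each of 24 h and 48 h. Of all tested features 2.96% and 4.61% were lower at these times, and of all genes 10.4% and 13.3%.

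Gm13204 in Exosc10, a nuclease of the RNA exosome, went from 13 ± 1.61 CPM in vehicle mice to 2.57 ± 1.52 at 24 h (adjusted p = 0.021), a call that was lost without 24 h mouse 1 or 4 (adjusted p up to 0.0589). Gm16209 in Vps4a, an ATPase of the ESCRT system, had 2.47 ± 0.778 CPM in vehicle mice and 0.144 ± 0.121 at 48 h (adjusted p = 0.00412). Its 24 h call (adjusted p = 0.0313) was lost without any of the 4 vehicle mice or without 24 h mouse 1, 3 or 4 (adjusted p up to 0.0945). Gm22204 in the splicing factor gene Xab2 had 4.42 ± 0.984 and 0.315 ± 0.285 CPM (adjusted p = 0.0118 at 48 h and 0.0679 at 24 h). Gm7887 and its host Zfp862-ps moved in opposite directions: the feature had 9.06, 9.1, 8.74 and 8.76 CPM in vehicle mice and 2.59, 2.98, 4.18 and 4.97 at 24 h, while the host had 4.63, 4.43, 6.48 and 4.28 and then 8.53, 14, 9.89 and 15.5. The difference was -2.56 ± 0.60 (adjusted p = 0.00954), though the call of the feature alone (adjusted p = 0.0318) was lost without any of the 4 vehicle mice or without 24 h mouse 1 or 2 (adjusted p up to 0.0789). Gm12734 in the kinase gene Taok1 averaged 1.56 ± 0.454 CPM in vehicle mice and 0.301 ± 0.215 at 48 h (adjusted p = 0.0142), and Taok1 rose by 0.72 ± 0.21.

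A test of each feature against its own host in the same mice was possible for 283 pairs. It asks whether the log2 change of the feature differs from that of the host. At 24 h, 90 features rose more than their host and 11 less, with a median difference of 1.16. Features that passed the filter through DOI mice alone are among them and had to differ, so these counts are a description and not support. All 1777 pairs tested together joined any single-exon feature, Gm or not, to a host of either strand. Of these, 26.2% and 3.55% were called in those directions and 29.8% in all. At 48 h the counts were 98 and 13, with a median of 1.32, against 30.6% and 3.1% of all pairs (33.7% in all). At 7 days no pair was called among these or among all pairs (0%), and limma also called none. An unadjusted p below 0.05 in the edgeR pair test was found for 62 of 283 pairs and for 285 of all 1777. For own-strand features the counts were 306 and 37 of 1146 pairs at 24 h. Leaving out 24 h mouse 4 lowered the 24 h count of called pairs from 101 to 57, and leaving out vehicle mouse 2 lowered it to 60.

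The calls of features and hosts were set side by side. Of the 106 features that rose at 24 h, 22 had a host that rose, 10 a host that fell, 70 a host that was not called and 4 a host that was not tested. Of the 9 that fell, 3 had a host that fell and 1 a host that rose. Among features not called at 24 h, 30 had a host that rose, 21 a host that fell, 121 a host that was not called and 17 a host that was not tested. At 48 h, of 128 features that rose, 37 had a host that rose, 14 a host that fell, 73 a host that was not called and 4 a host that was not tested; among features not called these were 29, 22, 95 and 16. Across 283 features the log2 fold change of a feature and that of its host had a Spearman rho of 0.18 at 24 h and 0.22 at 48 h; the 2 share libraries and vehicle mice, and the values describe these data only.

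**Figure D4:**
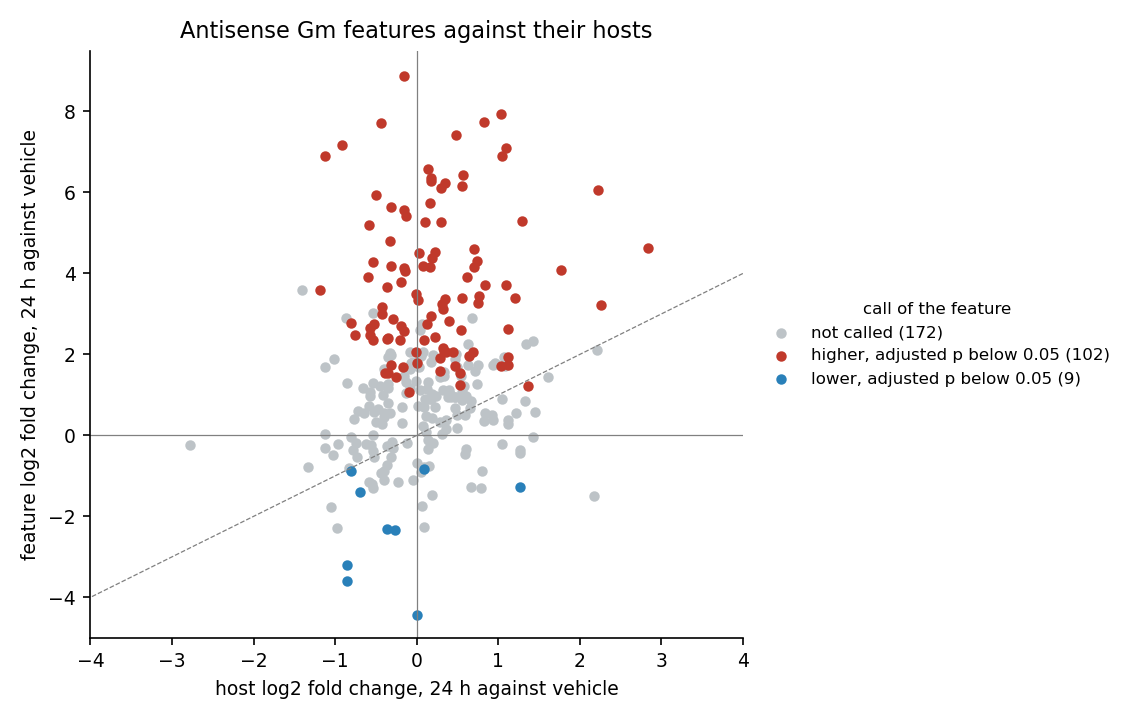
Log2 fold change at 24 h of each of 283 antisense features (vertical) against that of its host (horizontal). The 102 features called higher are red, the 9 called lower blue and the dashed line marks equal change. Most red points lie above that line over hosts with changes of either sign.

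Per kilobase, features in introns came closer to their hosts' exons. Over 231 features that share no exon base and whose host was tested, the median density was 1.13 CPM per kb of feature in vehicle mice, 3.35 in the 24 h group, 3.64 in the 48 h group and 2.65 in the 7-day group. The median exonic density of the hosts was 8.59, 9.44, 9.61 and 9.18 CPM per kb. The ratio of the densities of a feature and its host had a median of 11.9% in vehicle mice (quartiles 3.47% and 56.2%), 36.1% in the 24 h group (16.4% and 113%), 41.7% in the 48 h group and 29.2% in the 7-day group. The feature was denser than its host in 32 pairs in vehicle mice and 68 at 24 h. No test was made of these medians, which cover only features that passed the filter.

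The median change was larger farther from a host exon and in longer hosts. At 24 h the median log2 fold change was 0.90 for 52 tested features over a host exon and 1.22 for 52 that lay 1 to 1000 bases from one. It was 1.44 for 71 that lay beyond 1000 and up to 5000 bases, 1.74 for 67 up to 20000 bases and 1.94 for 62 that lay farther away. By the span of the host, the medians of the 4 quartiles were 0.62, 1.37, 1.64 and 1.94 from the shortest (2693 to 43944 bases) to the longest (320693 to 2960900 bases). Of 76 tested features in the quartile with the shortest hosts, 13 rose and 7 fell at 24 h. Of 76 in that with the longest, 37 rose and 0 fell. In all, 26.3% and 48.7% were called, against 24.2% of all genes. Over all tested features 34.9% rose and 2.96% fell, and over all genes 13.8% and 10.4%. At 48 h the quartiles had medians of 0.72, 1.48, 1.85 and 2.21. At 24 h, Spearman's rho with host span was 0.32 over 304 features, 0.23 with distance to an exon, -0.06 with the length of the feature and -0.02 with its place along the host. Span and distance go together, all features share the same libraries, and these are descriptions. The filter bears on them too: 130 of the 304 met its level in no vehicle mouse and had to differ. Their median log2 fold change at 24 h was 2.76, with a median host span of 124160 bases. For 80 that met it in 1 to 3 vehicle mice these were 0.97 and 144922 bases. For 94 that met it in all 4 they were 0.00 and 64410 bases. The part of the filter in these medians was not tested.

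**Figure D5:**
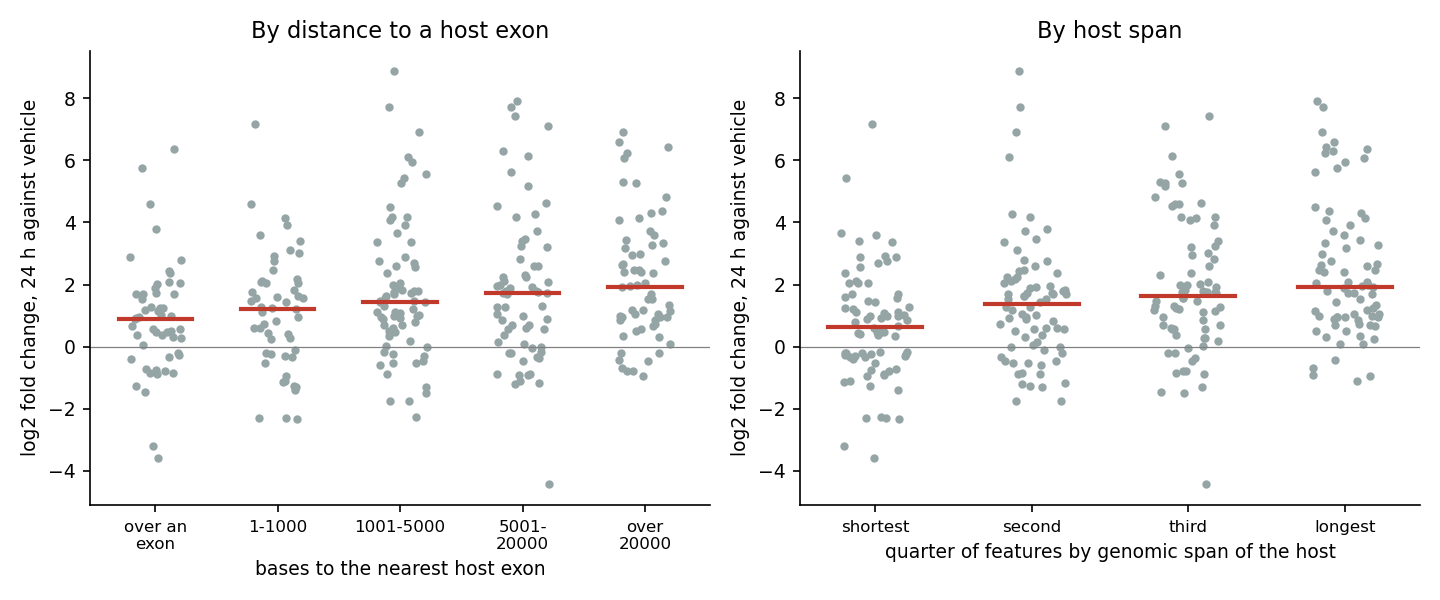
Log2 fold change at 24 h of the 304 tested features by distance to the nearest host exon (left, bases) and by quartile of host span (right); grey points are features and red lines medians. The medians go from 0.90 to 1.94 on the left and from 0.62 to 1.94 on the right. Of the 304, 130 met the filter level in no vehicle mouse and had to differ.

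By kind of gene, 41 of 122 tested pseudogenes rose at 24 h and 4 fell, and 57 of 167 features without a RefSeq entry rose and 5 fell, both near the 34.9% of all tested features. Of 79 snRNA and snoRNA genes only 6 were tested, of which 4 rose at 24 h and 48 h and none fell. Among them Gm22499, in the ubiquitin-conjugating enzyme gene Ube2e2, rose by 2.76 (adjusted p = 0.0226) while its host had -0.52. Gm25578, in the potassium channel regulator gene Dpp10, had 2 vehicle counts and 97 at 24 h, a ratio of 65.2 (17.6 to 546). Of 4 tested protein-coding models, 3 were called at 24 h and 1 at 48 h. Gm9839 had 0.378, 0.455, 0.295 and 0.389 CPM in vehicle mice and 1.83, 1.49, 1.39 and 1.78 at 24 h, a log2 fold change of 2.06 ± 0.62 (adjusted p = 0.0243). Its neighbour Gm5415 averaged 3.03 ± 2.01 and 7.79 ± 2.76 CPM and was not called (1.35 ± 0.54, adjusted p = 0.0734). Khdrbs2, the splicing regulator gene that holds both, was level at 88.4 ± 20.9 and 88 ± 5.42 CPM (log2 -0.01 ± 0.17). Gm6588 in Sez6l rose by 3.21 at 24 h (adjusted p = 0.0292) but was not called at 48 h (adjusted p = 0.0647), and its host by 2.26 ± 0.36 (adjusted p = 0.00176).

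Hosts were grouped by the start of their symbols. Of 29 features in adhesion and guidance genes 13 were tested, and 10 rose and none fell at 24 h and at 48 h (76.9%). Over all tested features 34.9% rose at 24 h and 42.1% at 48 h, and over all genes 13.8% and 16.8%; no difference from these shares was tested for any group. The features in adhesion genes included Gm11242 and Gm11243 in Ptprd, a presynaptic receptor phosphatase (log2 2.48 and 2.65, adjusted p = 0.0204 and 0.0392) and Gm18021 in the axon guidance receptor gene Robo2 (4.14, adjusted p = 0.0146). Ptprd had -0.57 and Robo2 -0.15. Of 10 tested in ion channel genes 6 rose at 24 h and 9 at 48 h; 4 of the 10 lie in Kcnip4, which encodes a channel-associated protein and not a channel, and account for 2 of the 24 h and 4 of the 48 h calls. Among them was Gm13541 in the calcium channel subunit gene Cacnb4 (2.00 at 48 h, adjusted p = 0.00592). Of 9 tested in phosphatase and kinase genes 5 rose at 24 h and 7 at 48 h, though 1 host in that group was taken in by its letters and is neither. Of 7 in zinc finger and chromatin genes, 3 rose and 1 fell, with Gm37048 in Hdac4 at 3.91 (adjusted p = 0.0036) and Gm42585 in Kmt2c at 4.60 (adjusted p = 0.00495). One host taken in by its letters, Chdh, is not a chromatin gene, and its feature was not called. Of 7 features in phosphodiesterase and cyclase genes 1 was tested, Gm7180 in Pde8a, and it was not called (log2 -0.37 at 24 h and -0.45 at 48 h). All 5 features in glutamate receptor genes and all 4 in GABA receptor genes stayed below the filter. These hosts were long, with a median span of 906246 bases for the tested adhesion features and 634220 for the channel features, against 96670 for the 264 features in no group.

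Most hosts held 1 feature (776), 75 held 2 and 24 held 3 or more. Features of 1 host share their locus and are not replicates. In the hosts with 3 or more, 34 of 78 features were tested, and 14 rose at 24 h and 21 at 48 h with none falling, where 34.9% and 42.1% of all tested features rose. All 4 in Kcnip4 rose at 48 h, by 1.20 to 2.57, while Kcnip4 had -0.42 (adjusted p = 0.0839). All 3 in Ppp2r3a, a regulatory subunit of protein phosphatase 2A, rose at 48 h, by 1.56 to 2.51, and the host was not called (0.44, adjusted p = 0.113). In Ube3a, the ubiquitin ligase gene of Angelman syndrome that Snhg14 runs against, Gm44559 and Gm44562 rose at 24 h (1.74 and 1.93, adjusted p = 0.0306 and 0.0368). Gm44560, which overlaps a Ube3a exon, had 0.38 (adjusted p = 0.654), and Ube3a itself rose by 1.12 (adjusted p = 0.0249). None of the 3 differed from Ube3a in the paired test, with 24 h differences of 0.56, -0.73 and 0.92. In Nav3, Gm47338 had 4.38 (adjusted p = 0.00808), while its neighbours Gm47337 and Gm47339 had 0.97 and 0.94 and were not called at 24 h; Gm47337 was at 48 h (2.06, adjusted p = 0.0406). In Lrrc7, 4 features were tested, none was called at 24 h and Gm42968 was at 48 h (2.02, adjusted p = 0.0435).

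Gm8580, in the netrin gene Ntn4, had 7 counts over the vehicle mice, 4 over the 24 h mice, 11 over the 48 h mice and 8 over the 7-day mice and was not tested. Ntn4 fell from 18.6, 19.1, 17.6 and 13.7 CPM in vehicle mice to 3.66, 2.38, 4.82 and 1.07 CPM at 24 h (log2 -2.53 ± 0.63, adjusted p = 0.00944).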

How the data were processed

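Nuclear RNA of NeuN+ nuclei was sequenced in 32 libraries of 16 mice; 52 chromatin samples were not analysed here. The deposited files hold raw read counts per gene made with featureCounts v2.0.0 over exons of a GRCm38 annotation, per the file headers, with no option for strand, multiple mapping or overlap; the aligner of the RNA reads is not given in the sources used here. Libraries of a mouse were summed. For 3 mice (24 h mouse 1, 48 h mouse 2, 7 days mouse 2) the file header carries another mouse number than the label. Symbols were found for 99.5% of gene IDs. Counts were tested with edgeR 4.0.16 (TMM, filterByExpr, quasi-likelihood F test, all 16 mice, Benjamini-Hochberg over all genes, threshold 0.05), with a mouse and feature-by-group model for pairs; fits were tested on simulated data. CPM are TMM-scaled; errors are SD (n = 4) or SE of log2 fold changes. Alternatives used DESeq2 1.42.0, limma 3.58.1 (prior count 2), other scalings, filters, libraries, thinned counts and samples. Named features were the 6 with the highest level, the 4 largest called changes per direction with a mean of at least 1 CPM and no overlap, the 4 smallest 4-group p-values (at 7 days the 2 smallest), the 4 smallest pair p-values per direction at 24 h, and those in hosts with 3 or more features or in Ntn4; a few features are not reported here. Others were named after their values were seen, such as those given by host group and gene kind, Gm37174, Gm47794, Gm6588 and the 15 that fell. The features and lists were chosen with earlier results of these data known. A count of 0 allows up to 3 counts; such limits cover counting error only.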

Additional observations from a re-analysis of the deposited data

Results flagged for a closer look

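Among 100 groups of 4 mice examined for 1 mouse apart from the other 3 (21 named features and 4 summary measures), 3 were marked, where chance marks about 1 in 20. Gm43361 had 72.3 CPM in 24 h mouse 1, with the other 24 h mice between 42.1 and 42.8. Gm46432 had 109 CPM in 48 h mouse 2, with the others between 53.7 and 61.4. Gm13204 had 6.52 CPM in 48 h mouse 1, with the others between 1.67 and 2.22.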

How the results depend on the processing

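Of 553 recomputed log2 fold changes of 21 named features, none changed sign. On their side of the threshold stayed 517, while 14 lost the call and 22 gained it. Of the fits that left out 1 mouse, only the lowest and highest log2 fold change of each feature and time are among the 553. Calls lost in the other such fits are not counted there. The 24 h call of Gm44829 alone held in 11 of 16 such fits. Of 251 recomputed counts, 217 were within 1.5 times the reported ones. With DESeq2, 50 features were called at 7 days, 2 between 7 days and 24 h, and 118 over the 4 groups. With no filter on low counts, all 1004 features were tested in place of 304. In that fit 175 were called at 24 h, 64 at 7 days, 6 between 7 days and 24 h, and 157 over the 4 groups. Library 2 alone gave 60 features at 24 h, 85 at 48 h and 48 over the 4 groups, and 49 pairs at 24 h and 65 at 48 h; library 1 alone gave 65 pairs at 24 h. These had fewer features tested, 168 and 200 in place of 304. Without the 3 mice whose header number differs, 2 features were called between 7 days and 24 h. Leaving out each mouse in turn, the count of called features ranged from 64 to 142 for 24 h, from 93 to 167 for 48 h and from 0 to 68 for 7 days. It ranged from 0 to 4 for 7 days against 24 h (3 without 7-day mouse 2, 4 without 7-day mouse 4) and from 20 to 107 for the 4-group test, which fell to 24, 20, 34 and 27 without vehicle mice 1 to 4, 48 without 24 h mouse 4 and 47 without 48 h mouse 2. Called pairs ranged from 57 to 119 for 24 h (65, 60 and 67 without vehicle mice 1, 2 and 4), from 77 to 130 for 48 h and from 0 to 22 for 7 days, the latter without 7-day mouse 1. The cause was not tested.

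The mouse numbers share only a number and did not pair mice across groups: of 24 same-numbered pairs, 6 had deviations correlated above 0.1 (range -0.28 to 0.24), and in 7 of 48 comparisons of a mouse with another group its own number was the best match. With the number as a replicate block, 97 features were called at 24 h, 129 at 48 h, 0 at 7 days, 0 between 48 h and 24 h, 0 between 7 days and 24 h, and 59 over the 4 groups, and 89, 104 and 0 pairs at 24 h, 48 h and 7 days. Depth left 700 of 1004 features too low to test.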
